A study of Homo sapiens with 9 samples.

Results

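Interferon-stimulated genes, the set of antiviral effectors, sensors and regulators that cells switch on through interferon receptors, were followed in BL2 cells stimulated through CD40 or with lipopolysaccharide (LPS). A list of 50 such genes was used. A probe set counted for a gene when its annotation named that gene and no other, and the probe set with the highest mean over all arrays stood for the gene. By this rule 49 of the 50 genes were measured, of 19775 genes in the whole data set. The remaining gene is not analysed here, so counts and rankings of members cover the 49 measured genes only. The 49 genes had 102 probe sets, of which 53 were not the brightest of their gene.

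BL2 cells are a long-established line grown out of a human Burkitt lymphoma and served in the study as a model of the transformed germinal centre B cell. The arrays covered cells treated for 6 hours with recombinant human CD40 ligand (CD40L), cells treated for 6 hours with LPS, and control cells without treatment, in 3 biological replicates each. Each of the 3 experimental batches held 1 CD40L, 1 LPS and 1 control array, 9 arrays in all. The study's methods give 200 ng/ml for CD40L and 1 µM for LPS. All groups are the same cell line grown in the same medium, so every value describes 1 line. Each stimulus was read at 1 time point. The labels give no time for the control arrays, so a difference in culture time cannot be told apart from the stimulus in comparisons with control. Nor can a change in RNA per cell be told apart from a change in the mix of cells in a culture.

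Type I interferons bind a receptor whose Janus kinases activate STAT proteins. These proteins, whose activation arrays of RNA do not read, enter the nucleus with IRF9. There they bind the interferon-stimulated response element (ISRE) in the promoters of their target genes. Some of these genes can also be switched on directly by interferon regulatory factors or by NF-κB, which CD40 and the LPS receptor TLR4 engage. The proteins they encode detect viral nucleic acid, degrade it, block translation or keep viruses out of the cell.

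Promoter stretches of 4 genes that were higher after a stimulus (IFIT1, IFIT3, IFI44 and IFIH1) and of 3 that were lower (IFITM1, ISG20 and OAS1) are shown to place the ISRE letters. They are examples, and numbers of matches overlapped between the 2 sets. Each stretch is the 160 bases before an annotated start site, 5′ to 3′ on the strand of the gene, from the RefSeq promoter table (build GRCh38.p14), with every match to the ISRE-like motif (GAAA, any 2 bases, GAAA) on either strand in capitals.
IFIT1, chr10:89392463-89392622, plus strand: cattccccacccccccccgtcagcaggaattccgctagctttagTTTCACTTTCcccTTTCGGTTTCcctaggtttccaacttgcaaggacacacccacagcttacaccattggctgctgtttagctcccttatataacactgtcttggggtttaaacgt
IFIT3, upstream start site, chr10:89327837-89327996, plus strand: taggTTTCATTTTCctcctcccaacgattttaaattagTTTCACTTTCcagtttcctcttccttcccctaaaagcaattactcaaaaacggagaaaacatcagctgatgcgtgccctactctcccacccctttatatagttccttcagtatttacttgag
IFIT3, downstream start site, chr10:89332369-89332528, plus strand: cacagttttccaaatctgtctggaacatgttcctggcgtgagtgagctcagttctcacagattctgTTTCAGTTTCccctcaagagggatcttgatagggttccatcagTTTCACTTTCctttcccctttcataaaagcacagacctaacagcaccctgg
IFI44, chr1:78649671-78649830, plus strand: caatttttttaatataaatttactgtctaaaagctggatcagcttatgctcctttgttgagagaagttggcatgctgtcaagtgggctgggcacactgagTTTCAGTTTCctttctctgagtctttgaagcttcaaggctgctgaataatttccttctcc
IFIH1, chr2:162318685-162318844, minus strand: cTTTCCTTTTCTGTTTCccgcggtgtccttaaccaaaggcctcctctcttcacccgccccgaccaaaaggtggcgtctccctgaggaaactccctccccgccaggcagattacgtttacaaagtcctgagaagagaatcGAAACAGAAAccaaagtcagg
IFITM1, chr11:313880-314039, plus strand: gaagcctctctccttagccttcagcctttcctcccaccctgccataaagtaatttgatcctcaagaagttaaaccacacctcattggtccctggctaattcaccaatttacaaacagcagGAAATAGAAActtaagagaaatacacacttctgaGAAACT
ISG20, chr15:88638856-88639015, plus strand: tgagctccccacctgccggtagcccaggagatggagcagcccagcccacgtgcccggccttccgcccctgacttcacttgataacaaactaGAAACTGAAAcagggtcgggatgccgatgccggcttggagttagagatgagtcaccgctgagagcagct
OAS1, chr12:112906802-112906961, plus strand: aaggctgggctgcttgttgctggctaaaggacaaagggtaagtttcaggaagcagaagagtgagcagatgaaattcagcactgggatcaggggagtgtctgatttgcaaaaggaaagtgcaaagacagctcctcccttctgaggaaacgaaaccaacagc

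In the IFIT1 stretch the matches began 116 and 103 bases before the start site. IFIT3 had a pair before each of its start sites, at 156 and 122 bases and at 94 and 51 bases. In IFIH1 a first pair of matches overlapped, at 159 and 153 bases, and another lay 21 bases before the start site. ISG20 had a match at 69 bases and IFI44 at 60 bases before the start site shown. IFITM1 had a match at 40 bases and another that began 6 bases before the start site and ran past the end of the stretch shown. The OAS1 stretch held no match. It does contain the same half-sites with 1 base between them (GAAANGAAA), 17 bases before the start site. That spacing was looked for only after these letters had been read. It was found in 3.12% of all promoter windows and in 19 of the 52 windows of the measured genes, of 15 genes.

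Promoter windows of 300 bases, from 250 before to 50 after a start site, were listed for 37 of the 49 genes, 52 windows in all, and 12 of these genes had more than 1 window. An ISRE-like match was in 32 of the 52 windows (61.5%), of 27 genes, against 3.57% of all 35116 windows. The GAS-like motif TTCNNNGAA, after the gamma-activated site, was in 13 windows (25.0%) of 11 genes, against 7.66% of all windows. The kB-like motif (GGGA, any 2 bases, TTCC), after the NF-κB site, was in 4 windows (7.69%), those of IFIH1, OAS3, RIGI and GBP4, against 1.61% of all windows. Both strands were searched for each motif and matches of different motifs were allowed to overlap. A match describes letters and does not show that a factor binds there.

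**Figure D1:**
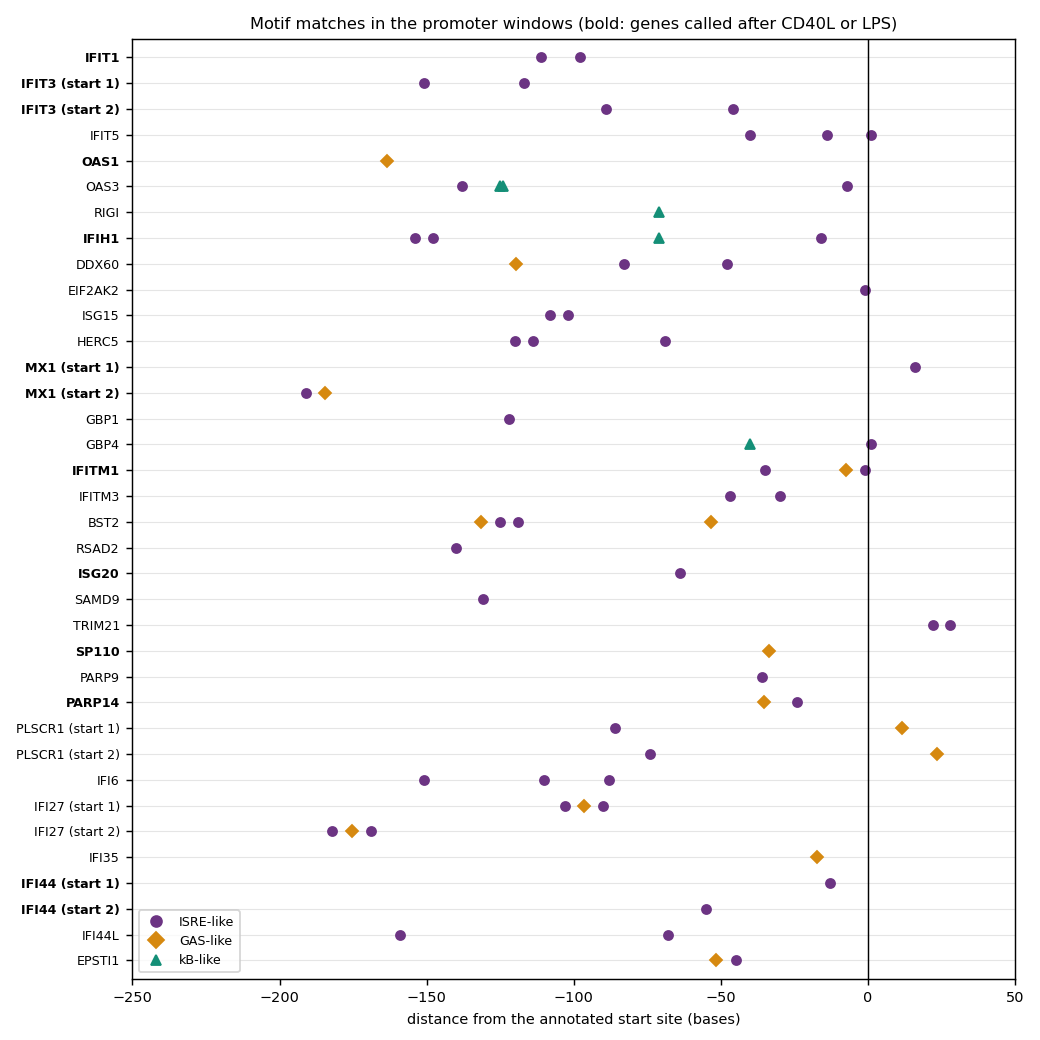
Positions of motif matches in the promoter windows of interferon-stimulated genes. The horizontal axis is the distance in bases from the annotated start site (0), each row is a start site with at least 1 match, symbols mark the centre of ISRE-like, GAS-like and kB-like matches, and genes in bold were called after CD40L or LPS. All 4 genes higher after LPS have ISRE-like matches. So do 19 of the 27 genes that have a window among the 35 called in no comparison.

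Levels are on the deposited log2 scale of variance-stabilized probe intensities, on which differences of dim probe sets are compressed. The array medians lay between 6.42 and 6.47, and replicate arrays correlated at 0.994 to 0.997 over all probe sets. A gene was called higher or lower when its limma test, with batch as a term and Benjamini-Hochberg adjustment over all 54613 probe sets, gave an adjusted p of at most 0.05. With 3 arrays a group the number of arrays limits the precision. An exact permutation test of a single gene that ignores batch could not go below p = 0.1. One that swaps labels only within batches has fewer arrangements and a higher limit. Both stimuli were set against the same 3 control arrays, so the 2 comparisons are not independent. The B cell identity of the line was checked on 8 measured B cell markers, whose mean levels were 8.83 to 13.0. Marker lists of T and NK cells, monocytes, plasmacytoid dendritic cells and fibroblasts had median levels of 6.40, 6.18, 6.39 and 6.33, near or below the array medians. The highest mean level of a marker in these lists was 6.95, 6.67, 6.69 and 7.94, so single markers lay above the array medians. Limma called none of their 10, 8, 4 and 6 measured genes in any comparison. At an unadjusted p below 0.05 there were 2 T and NK cell and 2 fibroblast markers after CD40L and none after LPS. Of the 8 B cell markers, 6 were lower after CD40L and 4 after LPS against control. CD79A, CD38, MME and BCL6 were lower after both stimuli, and CD79B and CD22 after CD40L. None was called higher, although the highest log2 difference of a marker was 0.39 after CD40L and 0.31 after LPS. The mean level of the list was 10.27 to 10.31 in CD40L arrays, 10.38 to 10.45 in LPS arrays and 10.55 to 10.65 in control arrays. The part of this in the results that follow was not tested.

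In total 14 of the 49 genes were called in at least 1 comparison and 35 in none. After CD40L, IFIH1, MX1 and PARP14 were higher than in control cells, while IFIT2, OAS1, OAS2, IFITM1, IFITM2, ISG20, TRIM22 and SP110 were lower. These 11 genes are 22.4% of the 49, beside 5.58% of all probe sets (3.71% higher and 1.87% lower). Brighter probe sets were called more often, and the brightest probe set of each gene gave 7.95% over all genes. Among genes with a mean level at or above 6.446, the median of all probe sets, 30.6% of the interferon-stimulated genes were called against 12.3% of all genes. The median log2 difference of the 49 genes was 0.013, and 0.005 over all probe sets. All 3 CD40L arrays lay above all 3 control arrays for 4 of the 49 genes and below for 9, beside 9.09% and 7.27% of all probe sets. Without batch as a term, 5 genes rather than 8 were lower.

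After LPS, IFIT1, IFIT3, IFIH1 and IFI44 were higher than in control cells, and OAS1, OAS2, IFITM1, TRIM22 and SP110 were lower. These 9 genes are 18.4% of the 49, beside 2.06% of all probe sets (1.17% higher and 0.892% lower) and 3.10% of the brightest probe sets of all genes. At a mean level of at least 6.446 the shares were 19.4% and 4.81%. The median log2 difference was 0.013 over the 49 genes and 0.003 over all probe sets. The LPS arrays lay above all control arrays for 9 genes and below for 9, beside 7% and 6.38% of all probe sets. Without batch as a term, 1 gene rather than 5 was lower, namely TRIM22. Of the genes called against control, 6 were called for both stimuli, OAS1, OAS2, IFITM1, TRIM22 and SP110 as lower and IFIH1 as higher.

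**Figure D2:**
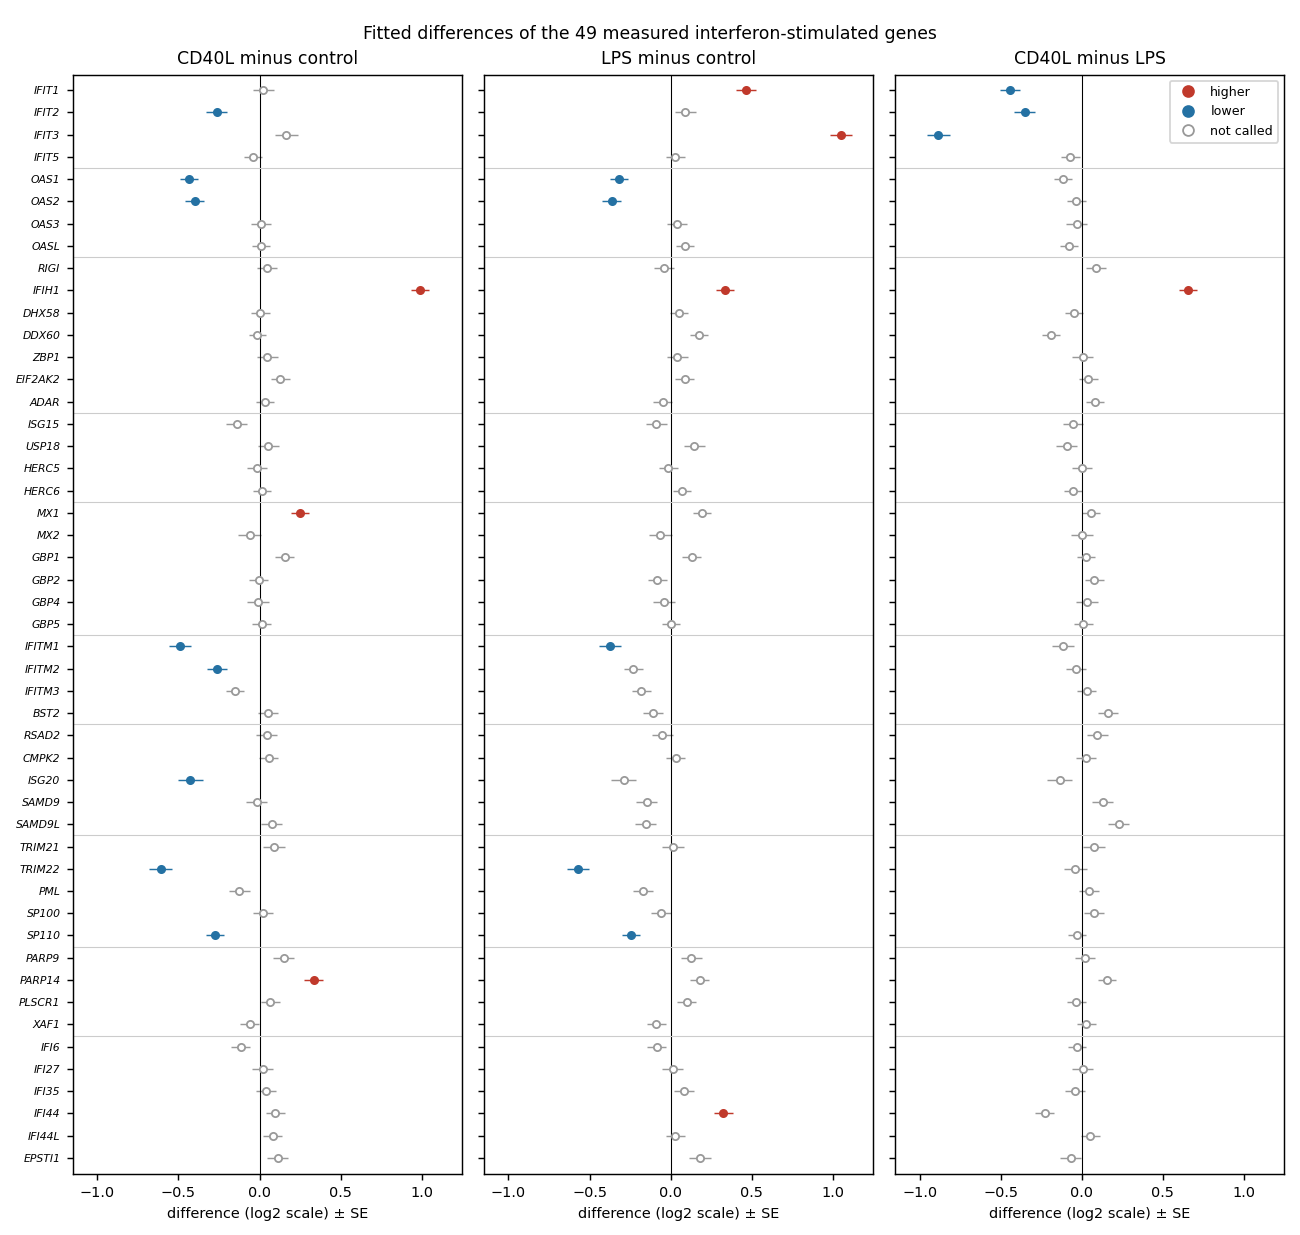
Fitted log2 differences of all 49 genes, grouped by role, for each stimulus minus control and, on the right, for CD40L minus LPS. Points are limma estimates with their SE, red for higher, blue for lower and open grey for not called. IFIH1 after CD40L (0.99) and IFIT3 after LPS (1.05) lie farthest to the right, and TRIM22 farthest to the left in both comparisons with control (-0.61 and -0.57).

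The IFIT proteins bind viral RNA that lacks the marks of host messenger RNA and hinder its translation. Of the 4 measured, IFIT3 and IFIT1 rose after LPS. IFIT3 stood at 7.50, 7.45 and 7.56 after LPS and at 6.50, 6.76 and 6.60 after CD40L, against 6.53, 6.41 and 6.42 in control cells. All LPS arrays lay above all others by more than the spread within any group, while CD40L and control arrays overlapped. The log2 difference was 1.05 ± 0.07 (SE) for LPS minus control, a 2.07-fold difference (limma adjusted p = 1.95e-06), and 0.17 ± 0.07 for CD40L minus control (limma adjusted p = 0.244). A second IFIT3 probe set gave 0.54 after LPS (limma adjusted p = 0.000867) and 0.04 after CD40L (limma adjusted p = 0.905). IFIT1 was dim, at 6.39, 6.36 and 6.58 after LPS, 5.88, 6.05 and 6.07 after CD40L and 5.88, 6.07 and 5.98 in control cells. Its LPS arrays were again above all others. The log2 difference from control was 0.47 ± 0.06 after LPS (limma adjusted p = 0.000857) and 0.02 after CD40L (limma adjusted p = 0.934). The LPS call was lost without the batch 3 arrays (0.40, limma adjusted p = 0.0607).

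IFIT2, their partner in the same complex, averaged 6.60 ± 0.06 after CD40L, 6.95 ± 0.10 after LPS and 6.86 ± 0.14 in control cells (SD, n = 3 each). Its CD40L arrays lay below all control arrays, by a log2 difference of -0.26 (limma adjusted p = 0.0232), and LPS and control arrays overlapped. The CD40L call was lost in 7 of 12 fits that left out an array or a batch, those without any 1 batch, any 1 CD40L array or the batch 3 control array (limma adjusted p of 0.0684 to 0.144), and without batch as a term (limma adjusted p = 0.102). The dimmer IFIT2 probe set differed by -0.17 after CD40L (limma adjusted p = 0.203) and by 0.34 after LPS (limma adjusted p = 0.0124), so the 2 probe sets of this gene gave different calls for both stimuli. IFIT5 was called in no comparison, with a mean level of 6.46 after CD40L, 6.53 after LPS and 6.50 in control cells.

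The OAS enzymes make 2′-5′-linked oligoadenylates, which activate the ribonuclease RNase L. OAS1 and OAS2 fell after both stimuli. OAS1 stood at 7.56, 7.80 and 7.70 after CD40L, 7.69, 7.93 and 7.78 after LPS, and 8.06, 8.20 and 8.09 in control cells. Every stimulated array was below every control array. The log2 difference from control was -0.43 ± 0.06 (SE) after CD40L (limma adjusted p = 0.000136) and -0.32 ± 0.06 after LPS (limma adjusted p = 0.00546), and the other OAS1 probe set gave -0.37 and -0.34, both called. OAS2 stood at 7.67, 7.68 and 7.47 after CD40L, 7.74, 7.64 and 7.55 after LPS, and 8.17, 7.95 and 7.91 in control cells. Again no stimulated array reached the control arrays. The differences were -0.40 ± 0.06 after CD40L (limma adjusted p = 0.000556) and -0.36 ± 0.06 after LPS (limma adjusted p = 0.00335). One further OAS2 probe set gave -0.39 after CD40L, called, and -0.27 after LPS (limma adjusted p = 0.0574), and another gave -0.11 and -0.10, neither called. OAS3 and OASL were called in no comparison, with differences from control of 0.01 after CD40L and of 0.04 and 0.09 after LPS. Leaving out the batch 1 or batch 3 arrays took the LPS call from OAS1 (limma adjusted p of 0.0528 to 0.142, also without the LPS array of either batch) and from OAS2 (limma adjusted p of 0.0772 and 0.0960), and so did dropping batch as a term (0.0994 and 0.0760).

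IFIH1 encodes MDA5, a helicase that recognises long double-stranded RNA in the cytoplasm. It rose after both stimuli and was the member that differed most after CD40L. Its levels were 8.64, 8.56 and 8.47 after CD40L, 7.96, 7.95 and 7.79 after LPS, and 7.61, 7.65 and 7.44 in control cells. The 3 groups were fully separated, with CD40L on top and control at the bottom. The log2 difference from control was 0.99 ± 0.06 (SE) after CD40L, 1.99-fold (limma adjusted p = 4.42e-08), and 0.33 ± 0.06 after LPS, 1.26-fold (limma adjusted p = 0.00406). The LPS call was lost without the batch 1 arrays, the batch 3 arrays or the batch 1 LPS array (limma adjusted p of 0.0522 to 0.104) and without batch as a term (limma adjusted p = 0.0707). The other IFIH1 probe sets gave 0.22 (limma adjusted p = 0.0504) and 0.06 after CD40L and at most 0.03 after LPS, none called. Averaging the 3 probe sets gave 0.42 after CD40L, still called, and 0.12 after LPS, not called.

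The other sensors and binders of foreign nucleic acid were called in no comparison. RIGI, the sister sensor of short double-stranded RNA, differed from control by 0.05 after CD40L and -0.04 after LPS. DHX58, which tunes both sensors, had mean levels of 6.71 after CD40L, 6.76 after LPS and 6.71 in control cells. DDX60 averaged 5.88 after CD40L, 6.07 after LPS and 5.89 in control cells, with all LPS arrays above all control arrays (limma adjusted p = 0.136). EIF2AK2, the kinase PKR that halts translation, differed by 0.13 after CD40L and 0.09 after LPS. ADAR, which edits adenosine in double-stranded RNA, had the highest level of all members, 11.4 after CD40L, 11.3 after LPS and 11.3 in control cells.

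TRIM22, an antiviral ubiquitin ligase, fell most of the 49 measured genes. Its levels were 9.16, 9.30 and 9.17 after CD40L, 9.36, 9.12 and 9.27 after LPS, and 9.95, 9.74 and 9.77 in control cells. Stimulated arrays lay well below the control arrays and overlapped with each other. The log2 difference from control was -0.61 ± 0.07 after CD40L (limma adjusted p = 4.75e-05) and -0.57 ± 0.07 after LPS (limma adjusted p = 0.000363), and both calls were kept in all 12 fits that left out an array or a batch. SP110, a protein of nuclear bodies, stood at 8.81, 8.86 and 9.01 after CD40L, 8.91, 8.85 and 9.02 after LPS, and 9.16, 9.07 and 9.27 in control cells. The separation from control was narrow, 9.02 being the highest stimulated and 9.07 the lowest control level. The differences were -0.27 (limma adjusted p = 0.00658) and -0.24 (limma adjusted p = 0.0312). The LPS call was lost in 8 of the 12 fits, those without batch 1 or 3, any 1 LPS array, the batch 3 CD40L array or the control array of batch 1 or 3 (limma adjusted p of 0.0552 to 0.274). The CD40L call was lost in 3, those without batch 1, batch 3 or the batch 1 CD40L array (limma adjusted p of 0.0611 to 0.150). Neither was called without batch as a term (0.0705 and 0.221). Of the 4 other SP110 probe sets, 2 were lower after both stimuli and 2 after neither. The probe set used carries the _x_at suffix of probes that can match other transcripts. TRIM21, PML and SP100 were called in no comparison.

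IFITM proteins sit in membranes and block the entry of enveloped viruses. IFITM1 stood at 8.23, 8.52 and 8.31 after CD40L, 8.41, 8.52 and 8.48 after LPS, and 8.81, 9.07 and 8.65 in control cells. No stimulated array reached a control array. It fell by 0.49 on the log2 scale after CD40L (limma adjusted p = 0.00035) and by 0.37 after LPS (limma adjusted p = 0.00837). The LPS call was lost without batch 1 or without the LPS array of batch 1 or 2 (limma adjusted p of 0.0710 to 0.139) and without batch as a term (0.154). IFITM2 averaged 7.96 ± 0.13 after CD40L, 7.99 ± 0.10 after LPS and 8.22 ± 0.13 in control cells (SD, n = 3 each), and was lower after CD40L in all 3 batches, although the groups overlapped (log2 difference -0.26, limma adjusted p = 0.0154). Its call was lost in 6 of the 12 fits, those without batch 1 or 3, any 1 CD40L array or the batch 1 control array (limma adjusted p of 0.0503 to 0.129) and without batch as a term (0.136). IFITM3 differed by -0.15 and -0.18 and was not called. The 3 IFITM genes are close paralogs, and their probe sets may share signal. BST2, or tetherin, which holds budding virus on the cell, was not called.

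ISG20, an exonuclease that degrades viral RNA, fell after CD40L. It stood at 8.85, 8.82 and 8.72 after CD40L, 8.83, 8.93 and 9.05 after LPS, and 9.23, 9.38 and 9.06 in control cells. All stimulated arrays were below all control arrays, though the highest LPS array at 9.05 came close to the lowest control array at 9.06. The differences were -0.43 ± 0.08 after CD40L (limma adjusted p = 0.00248) and -0.29 ± 0.08 after LPS (limma adjusted p = 0.0641). A second ISG20 probe set passed for both stimuli, at -0.44 (limma adjusted p = 0.000507) and -0.34 (limma adjusted p = 0.00987). The first probe set passed too after LPS when batch 3 was left out, or only its LPS or control array (-0.43 to -0.38, limma adjusted p of 0.0198 to 0.0424). RSAD2, or viperin, CMPK2, SAMD9 and SAMD9L were called in no comparison.

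MX1, a GTPase that traps viral nucleocapsids, averaged 8.61 ± 0.05 after CD40L, 8.55 ± 0.02 after LPS and 8.36 ± 0.04 in control cells (SD, n = 3 each). Arrays of both stimuli were above all control arrays. The log2 difference was 0.25 after CD40L (limma adjusted p = 0.0131) and 0.19 after LPS (limma adjusted p = 0.0980), and the CD40L call was lost in 5 of the 12 fits, those without any 1 batch or the CD40L array of batch 2 or 3 (limma adjusted p of 0.0624 to 0.0950). It was also lost with quantile normalization (0.18, limma adjusted p = 0.0612) and with only the groups compared (limma adjusted p = 0.0516). PARP14, an ADP-ribosyltransferase, stood at 7.03, 6.93 and 6.89 after CD40L, 6.81, 6.83 and 6.75 after LPS, and 6.60, 6.67 and 6.58 in control cells. Its groups were separated in that order. The differences from control were 0.33 ± 0.06 after CD40L (limma adjusted p = 0.00175) and 0.18 ± 0.06 after LPS (limma adjusted p = 0.146), and the CD40L call was lost without batch 1 (0.29, limma adjusted p = 0.0742). Its other probe set gave -0.09 and -0.02, neither called. MX2 and the guanylate-binding proteins GBP1, GBP2, GBP4 and GBP5 were called in no comparison.

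IFI44 stood at 6.45, 6.44 and 6.50 after LPS, 6.19, 6.29 and 6.23 after CD40L, and 6.07, 6.10 and 6.24 in control cells. The LPS arrays were above all others. The log2 difference was 0.33 ± 0.06 after LPS (limma adjusted p = 0.00654) and 0.10 after CD40L (limma adjusted p = 0.485). For CD40L minus LPS it was -0.23, not called (limma adjusted p = 0.186). The LPS call was lost without batch 1, batch 3 or the LPS array of either (limma adjusted p of 0.0517 to 0.163), and the other IFI44 probe set gave 0.11, not called. Its neighbour in the genome IFI44L had the lowest mean level of all members, 5.91 over the 9 arrays, and was not called.

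**Figure D3:**
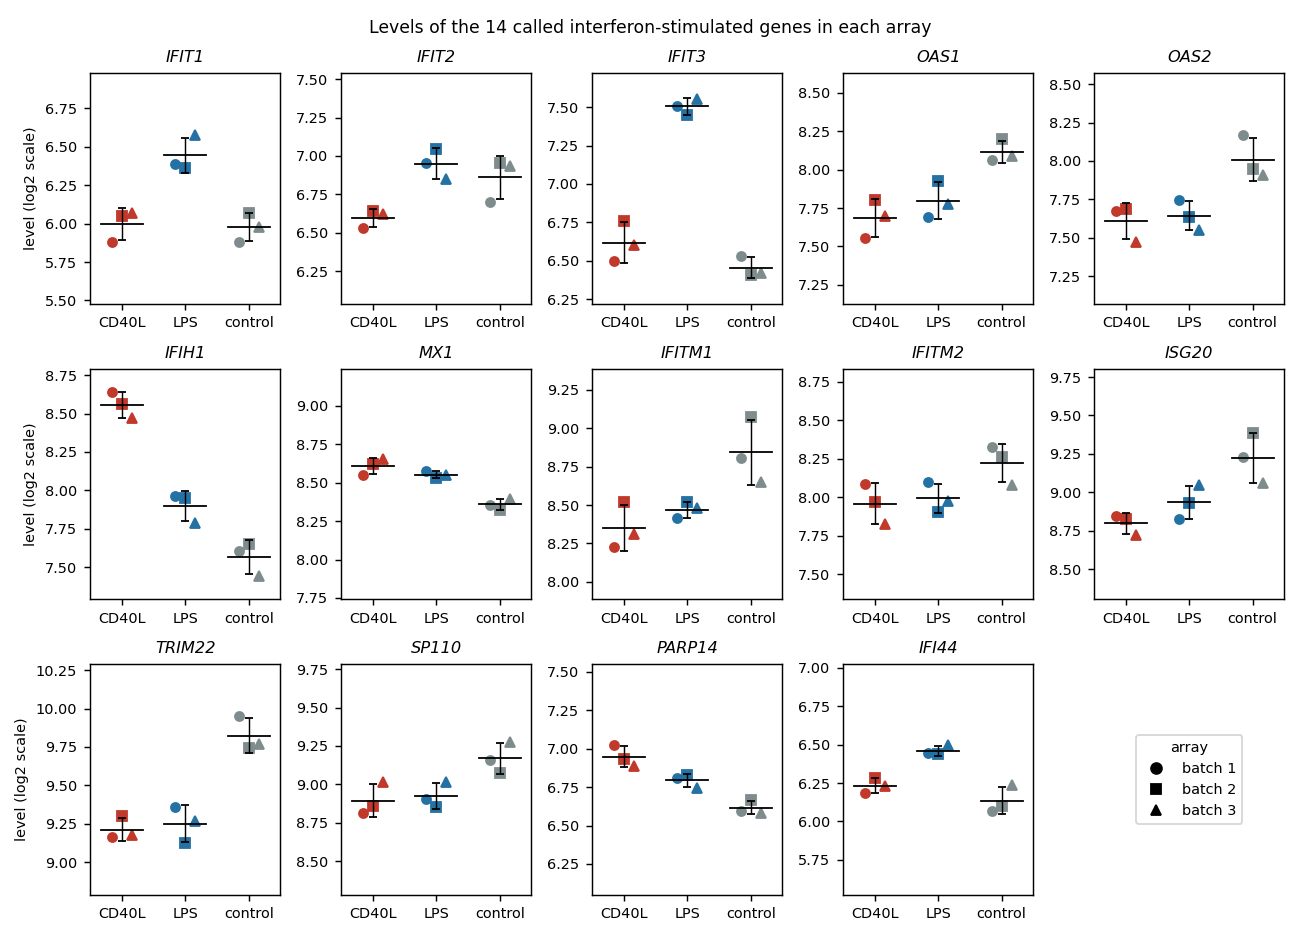
Levels of the 14 called genes in every array on the log2 scale, with CD40L, LPS and control from left to right. Symbols mark the batch, horizontal lines the mean and error bars the SD of 3 arrays, and every panel spans the same range. IFIT1, IFIT3 and IFI44 are highest in the LPS arrays, though IFI44 was not called between the stimuli, while OAS1, OAS2 and TRIM22 are low under both stimuli.

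The ubiquitin-like modifier ISG15 and its system were called in no comparison. ISG15 averaged 8.84 ± 0.08 after CD40L, 8.89 ± 0.12 after LPS and 8.98 ± 0.05 in control cells (SD, n = 3 each), so it was well above the array median in all groups. All its CD40L arrays lay below all control arrays (log2 difference -0.14, limma adjusted p = 0.285). USP18, which removes ISG15 and restrains receptor signalling, differed from control by 0.05 after CD40L and 0.15 after LPS (limma adjusted p = 0.370), with all LPS arrays above all control arrays. The ligases HERC5 and HERC6 were dim. Over the 35 genes called in no comparison the differences from control ran from a low of -0.15 to a high of 0.16 after CD40L, and from a low of -0.18 to a high of 0.18 after LPS. Among these, all LPS arrays also lay below all control arrays for SAMD9L, PML and XAF1, and above them for OASL. The CD40L arrays did so below control for XAF1 and above control for BST2. SE values of all members were 0.055 to 0.076. The mean level of 13 members was below the median of all probe sets, and 2 of these 13 were called, IFIT1 and IFI44.

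**Figure D4:**
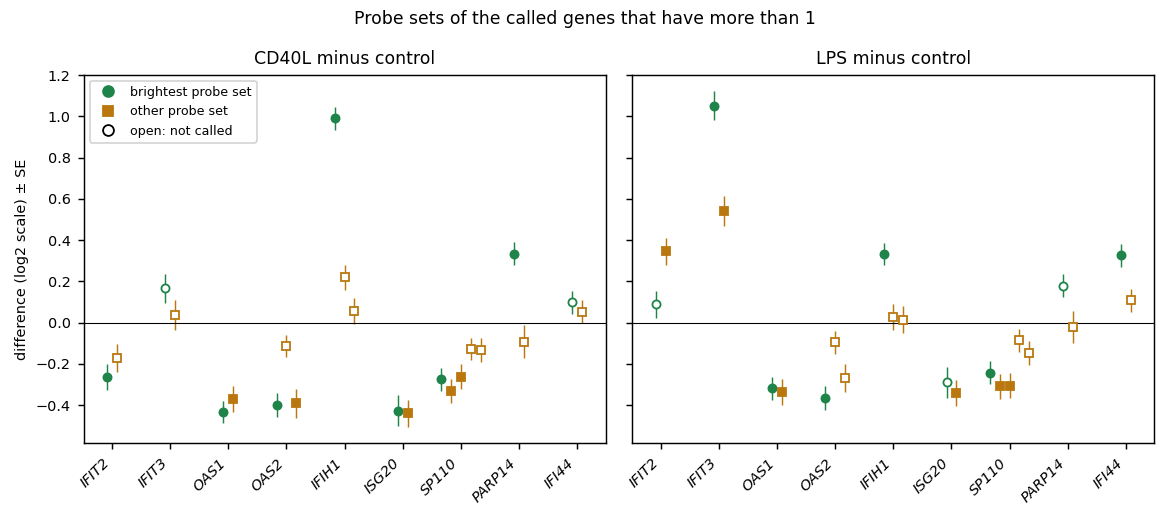
Log2 differences with SE for every probe set of the 9 called genes that have more than 1, for CD40L minus control and LPS minus control. Green circles are the brightest probe set of a gene, brown squares the others, and open symbols were not called. Both OAS1 probe sets fall below 0 for both stimuli, whereas the 3 IFIH1 probe sets are spread between 0.06 and 0.99 after CD40L.

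Over the 53 probe sets that were not the brightest of their gene, 5 were lower and 0 higher after CD40L by limma, and 4 were lower and 2 higher after LPS. Over all probe sets 1.87% were lower and 3.71% higher after CD40L, and 0.892% lower and 1.17% higher after LPS. These calls fell on 7 probe sets of 6 genes, IFIT2, IFIT3, OAS1, OAS2, ISG20 and SP110.

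Set directly against each other, the stimuli differed in 4 of the 49 genes (8.16%), beside 0.396% of all probe sets (0.300% higher and 0.0952% lower after CD40L) and 0.642% of the brightest probe sets of all genes. At a mean level of at least 6.446 the shares were 8.33% and 0.982%. The CD40L arrays lay above all LPS arrays for 6 genes and below for 6, beside 5.10% and 4.07% of all probe sets. IFIH1 was higher after CD40L than after LPS by 0.66 (limma adjusted p = 1.91e-05). IFIT3 was lower after CD40L by a log2 difference of -0.89 (limma adjusted p = 1e-05), IFIT1 by -0.44 (limma adjusted p = 0.00264) and IFIT2 by -0.35 (limma adjusted p = 0.0208). The IFIH1 and IFIT3 calls were kept in all 12 fits that left out an array or a batch. The IFIT1 call was lost in 5 of them, those without batch 1 or 3, the batch 3 CD40L array or the LPS array of batch 1 or 3 (limma adjusted p of 0.0585 to 0.178). The IFIT2 call was lost in 7, those without batch 1 or 3, any 1 CD40L array or the LPS array of batch 1 or 2 (limma adjusted p of 0.124 to 0.473), and also without batch as a term (0.171) and with batch as a random effect (0.106). The 5 genes that were lower after both stimuli were not called between them. OAS1 was lower after CD40L than after LPS in all 3 batches, by -0.11 with a 95% interval of -0.23 to 0.003. IFITM1 differed by -0.12 (-0.26 to 0.03), TRIM22 by -0.04 (-0.19 to 0.11), OAS2 by -0.03 (-0.16 to 0.09) and SP110 by -0.03 (-0.15 to 0.09).

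Genes upstream of this response were read from lists of the interferon pathway. As background for their counts, among all genes with a mean level of at least 6.446 the brightest probe set was higher in 7.81% and lower in 4.47% after CD40L, higher in 2.51% and lower in 2.30% after LPS, and higher in 0.752% and lower in 0.230% for CD40L minus LPS. All 18 measured interferon ligands were called in no comparison by limma, none reached an unadjusted p below 0.05, and 17 of the 18 were below the median of all probe sets, with means of 5.80 to 6.70. Of 9 receptor subunits and Janus kinases, 3 were higher after CD40L, namely JAK2 (0.45, limma adjusted p = 0.000108), TYK2 (0.45, limma adjusted p = 0.000784) and IFNGR2 (0.21, limma adjusted p = 0.0460), and JAK2 was the 1 gene higher after LPS (0.29, limma adjusted p = 0.0105). JAK1 was higher after CD40L than after LPS (0.30, limma adjusted p = 0.0409).

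The next list held STAT factors together with a selection of interferon regulatory factors that leaves out part of their family. Its counts therefore do not describe interferon regulatory factors alone. Of its 7 measured genes, 1 was higher and 1 lower after CD40L, and 1 was lower after LPS. IRF8, which controls germinal centre B cell and myeloid genes, stood at 10.2, 10.1 and 10.1 after CD40L, 10.6, 10.5 and 10.7 after LPS, and 10.9, 11.1 and 11.1 in control cells. Its 3 groups were separated, with differences from control of -0.92 after CD40L (limma adjusted p = 5.67e-07) and -0.43 after LPS (limma adjusted p = 0.00347) and between the stimuli of -0.50 (limma adjusted p = 0.00226). IRF5 was higher after CD40L (0.31, limma adjusted p = 0.0218). IRF9 and IRF7 were called in no comparison.

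Of 17 measured sensing receptors, adaptors and kinases, IKBKE, a kinase that acts on interferon regulatory factors, was higher after CD40L (0.72, limma adjusted p = 1.11e-05) and after LPS (0.72, limma adjusted p = 8.33e-05). TLR7 (-0.43, limma adjusted p = 0.00166) and TLR4 (-0.26, limma adjusted p = 0.0423) were lower after CD40L, and TLR7 was also lower after CD40L than after LPS (-0.40, limma adjusted p = 0.0192). Of 6 negative regulators, SOCS1, an inhibitor of Janus kinases, was lower after LPS (-0.31, limma adjusted p = 0.0219) and higher after CD40L than after LPS (0.35, limma adjusted p = 0.0248).

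The promoter letters were set beside the calls as a description. All 3 genes higher after CD40L and all 4 higher after LPS had an ISRE-like match in a listed window. Among the 8 genes lower after CD40L it was present in 2, IFITM1 and ISG20, and among the 5 lower after LPS in 1, IFITM1. Of the 14 called genes, 4 had no listed window and were not searched, IFIT2, OAS2, IFITM2 and TRIM22. All 4 were lower after CD40L, and OAS2 and TRIM22 also after LPS. Counts of lower genes with a match therefore include genes that were not searched, unlike those of higher genes. Of the 35 genes called in no comparison, 27 had a window and 19 a match, ISG15, RSAD2 and IFI6 among them. IFIH1 was the 1 called gene with a kB-like match, 76 bases before its start site.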

How the data were processed

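The authors treated BL2 cells, extracted total RNA and hybridised it to Affymetrix expression arrays. They corrected and normalized probe intensities by variance stabilization over arrays and summarised probe sets by median polish. The values deposited are on this generalised log2 scale, and the version of the normalization software is not given in the sources used here. Sequencing depth does not apply to arrays.

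Of 54675 probe sets, 62 array controls were left out. The platform annotation named 1 gene for 41091, several for 1801 and none here for 11721. Of the first, 41037 matched the RefSeq gene table (GRCh38.p14). Differences were fitted with limma 3.58.1 (statmod 1.5.0, R 4.3.3) over the 9 arrays, the model holding condition and batch, and two-sided p-values were adjusted by Benjamini-Hochberg over 54613 probe sets. The script was tested on simulated data. Every member past the test was named, and the 8 of largest difference against control were given per array. Members, pathway lists and tests were chosen with earlier results of these data known.

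Batch is given by the sample labels, and the study's methods model it. Deviations of arrays of the same batch correlated at 0.217 on average (-0.181 to 0.466, over 0.1 in 7 of 9 pairs), and those of different batches at -0.109. Deviations were taken from the mean of each condition, so the second value largely follows from the first and is not separate evidence. Alternatives were no batch term, a random batch, median centring, quantile normalization, a fit of only the groups compared, bright probe sets only, the control probe sets kept, trend and robust moderation, an ordinary linear model, gene-specific probe sets, the mean of a gene's probe sets, and leaving out each array or batch. Motifs were searched with Python 3.11.15 and pandas 2.3.3.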

Additional observations from a re-analysis of the deposited data

How the results depend on the processing

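No called difference changed sign under any alternative. IFIH1 after CD40L was called in all 23. The ordinary linear model without moderation of variances gave 1 gene higher and 0 lower after CD40L, 0 and 0 after LPS, and 0 and 0 between the stimuli, and over all probe sets 16 higher and 7 lower after CD40L, 0 and 0 after LPS, and 1 and 0 between them. Without the replicate block 5 genes were lower after CD40L and 1 after LPS, and with a random block 2 after LPS. Over all probe sets the calls without the block were 884 higher and 562 lower after CD40L, 156 and 166 after LPS, and 64 and 9 between the stimuli, against 2027 and 1022, 637 and 487, and 164 and 52 with it. With a random block they were 1112 and 677, 247 and 248, and 81 and 16, with only the groups compared 1122 and 676, 433 and 336, and 387 and 161, and over the means of genes' probe sets 945 and 505, 241 and 225, and 66 and 20. Quantile normalization gave 1707 and 1694 after CD40L, 775 and 870 after LPS, and 183 and 89 between them. Bright probe sets alone gave 2 genes higher after LPS, and medians of -0.0115 for LPS and -0.0303 for CD40L minus LPS. Only the groups compared gave 2 genes higher after CD40L than after LPS. The mean of probe sets gave a CD40L median of -0.00351, and moved IFIH1 in all 3 comparisons, PARP14 (0.12 after CD40L, not called) and IFI44 (0.22 after LPS, still called) by over 1.5 times. The gene-specific probe set gave IFI44 0.11 after LPS, not called (limma adjusted p = 0.503). Quantile normalization and the fit of only the groups compared took the CD40L call from MX1. Leaving out an array or batch gave 1 to 3 higher and 5 to 8 lower after CD40L, 1 to 5 higher and 1 to 5 lower after LPS, and 1 to 1 higher and 1 to 4 lower between the stimuli, with medians of -0.00048 to 0.0349, -0.0222 to 0.0245, and -0.0109 to 0.00883. The causes were not tested. Dim probe sets such as IFIT1 lie where the scale compresses differences.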
